A study of Mus musculus with 17 samples.

Results

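The platelet-derived growth factor (PDGF) family was followed in the mammary tumors of CUX1 transgenic mice through its 4 ligand genes, Pdgfa, Pdgfb, Pdgfc and Pdgfd, and its 2 receptor genes, Pdgfra and Pdgfrb. These 6 genes, of 28786 on the array, were matched by gene name or RefSeq identifier and are read by 12 of its 41174 probes, on 21 of the 43379 spots that are not controls. The family was selected on the log2 ratios of Pdgfd, which were low in the tumors that the study placed in its high-Wnt cluster, so the values of the family by cluster are a description and were not tested.

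PDGF ligands are secreted dimers that bind receptor tyrosine kinases on the cell surface. PDGF-A and PDGF-B are active as released, whereas PDGF-C and PDGF-D carry an amino-terminal CUB domain that a protease must remove before they bind. PDGF receptor α and PDGF receptor β are typical of fibroblasts, pericytes and other mesenchymal cells, and the ligands often come from neighboring epithelial or endothelial cells.

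Epithelial cells were laser-microdissected from 17 tumors of FVB mice that carried a p75 CUX1 (9 tumors) or a p110 CUX1 (8 tumors) transgene under the MMTV promoter, which drives expression in mammary epithelium. The labels give no age for the mice used here, and no normal mammary tissue was compared: each tumor was set against a universal mouse reference RNA on 2-color arrays with dyes swapped, 38 arrays in all. By histology, 4 tumors were adenosquamous carcinomas (p75-47, p75-80, p75-94 and p75-101), 9 were solid carcinomas (p75-129, p75-150, p75-534, p110-121, p110-143, p110-225, p110-314, p110-360 and p110-416), p75-90 and p110-374 were adenomyoepitheliomas, p75-216 an adenocarcinoma and p110-98 an adenoma. The study's clusters, drawn from Wnt genes of the same arrays, hold 5 high-Wnt tumors (p75-47, p75-80, p75-94, p110-225 and p110-374), 5 medium-Wnt tumors (p75-90, p75-129, p75-216, p110-98 and p110-121) and 7 low-Wnt tumors (p75-101, p75-150, p75-534, p110-143, p110-314, p110-360 and p110-416). The cluster of each tumor was read from the study's heatmap and is not among the sample labels, which give histology and transgene.

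Values are log2 ratios of tumor over reference, so that 0 means as much signal as in the reference. A probe counted as measured where the scanner software marked the tumor's dye as well above background on each of its arrays. The share of all probes measured ranged from 18.3% in p110-374 and 18.9% in p110-98 to 61.9% in p75-129. All arrays of p75 tumors were scanned in one year and all arrays of p110 tumors in another, so that transgene and scan year cannot be told apart. Of 6 epithelial markers, 3 to 6 were measured in each tumor, with Krt8, Krt18 and Krt7 measured in all 17. Of 10 fibroblast markers 8 to 10 were measured in each tumor, of 10 pericyte and smooth muscle markers 4 to 9, and of 8 endothelial markers 2 to 7, although epithelial cells had been dissected. In p110-121 the mean log2 ratio over the 6 epithelial markers was −2.26, the lowest of all tumors, and that over the 8 immune markers was 1.85, the highest. In p110-416 the mean over the fibroblast markers was −3.46, the lowest of all tumors. In such samples fewer cells of a type and less RNA per cell cannot be told apart.

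The arrays carry 60-base probes, and how well a gene could be read depended on the probe. The 3 shown here are probes other than the brightest of their gene, and each is free of stop codons in at least 1 reading frame. Positions are those in the scanner files, on build mm7. Exon and UTR annotation of this build was not used here.
Pdgfd, A_52_P264790, chr9:6334682-6334741, plus strand: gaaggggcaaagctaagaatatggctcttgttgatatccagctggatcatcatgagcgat
Pdgfa, A_51_P370099, chr5:137951288-137951347, minus strand: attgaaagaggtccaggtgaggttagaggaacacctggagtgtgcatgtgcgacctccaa
Pdgfra, A_52_P264283, chr5:74581841-74581900, plus strand: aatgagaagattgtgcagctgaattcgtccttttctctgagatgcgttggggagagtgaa
The Pdgfd probe was measured in 3 tumors, the Pdgfa probe in 15 and the Pdgfra probe in 0 of 17. The brightest probe of each gene was used for the gene. It was measured in 17 tumors for Pdgfa (A_51_P370090), 5 for Pdgfb (A_52_P618427), 14 for Pdgfc (A_52_P376360), 10 for Pdgfd (A_52_P636948), 9 for Pdgfra (A_51_P345649) and 16 for Pdgfrb (A_51_P150964). All 6 genes were measured together in p110-143, p110-314 and p110-360, all of them low-Wnt solid carcinomas.

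**Figure D1:**
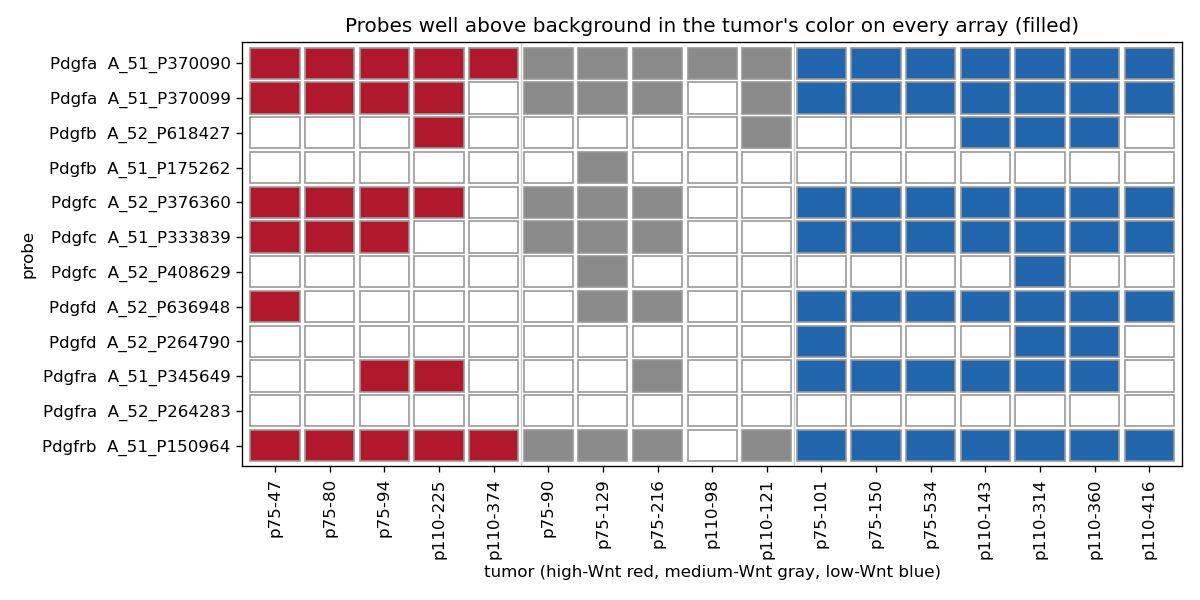
Each row is a probe of the family and each column a tumor, ordered by cluster. A filled square marks a probe that was measured, with the tumor's dye well above background on each of its arrays. The brightest Pdgfd probe is filled in 1 of 5 high-Wnt, 2 of 5 medium-Wnt and 7 of 7 low-Wnt tumors.

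Pdgfd, one of the ligands that need proteolytic release, was the member whose values chose the family. In high-Wnt tumors its log2 ratio was 0.78 in p75-47, 0.37 in p75-80, 0.29 in p75-94, 0.48 in p110-225 and 0.10 in p110-374, and it was measured only in p75-47. In low-Wnt tumors, all of which were measured, it ranged from 1.45 in p75-150 over a median of 2.74 to 4.74 in p110-360. The clusters therefore did not overlap, at a mean of 0.40 ± 0.25 (SD, n = 5) against 3.01 ± 1.23 (SD, n = 7). These differ by −2.61 as fitted, and by −3.95 to −1.50 under other settings, with a high-Wnt mean that rests on 4 tumors in which the probe was not well above background. Pdgfd was the 1 member of 6 without overlap, in a comparison where 0.695% of all genes (200 of 28786) were lower in high-Wnt tumors without overlap. Because this contrast selected the gene, nothing is read from that count. Other markers moved between the same clusters. Of 7 basal and myoepithelial markers 6 were higher in high-Wnt tumors, with a median difference of 1.95 over the list (Krt5 3.26, Trp63 2.19), the exception being Oxtr, measured in 2 tumors. Their mean per tumor ran from 2.90 over a median of 3.12 to 4.42 in high-Wnt and from −0.31 over a median of 2.74 to 2.995 in low-Wnt tumors. The 6 adipocyte markers had a median difference of −0.75, with means per tumor from 0.62 over a median of 1.77 to 5.92 in high-Wnt and from 0.22 over a median of 4.54 to 6.08 in low-Wnt tumors. The part of these cells in the Pdgfd values was not tested.

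The tumors next to the boundary were p75-47 at 0.78 on the high-Wnt side and p75-150 at 1.45 on the low-Wnt side. Medium-Wnt tumors, which the choice did not use, fell on both sides: Pdgfd was 1.54 in p75-129 and 1.67 in p75-216, both measured, and 0.57 in p75-90, 0.15 in p110-98 and 0.28 in p110-121, none of them measured. Within p75 tumors the high-Wnt mean was lower than the low-Wnt mean by a log2 difference of −1.99 (3 against 3 tumors). Within p110 tumors Pdgfd was measured in 0 of 2 high-Wnt and 4 of 4 low-Wnt tumors. The same tumors give these values and the choice of the family, so they add no support to it.

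The share of all probes measured ranged from 18.3% to 47.9% in high-Wnt tumors and from 30.1% to 51.8% in low-Wnt tumors. Within p110 tumors it was 18.3% to 22.2% in high-Wnt and 30.1% to 51.8% in low-Wnt tumors, without overlap. Within p75 tumors it was 31.4% to 47.9% against 34.8% to 35.7%, with overlap. The part of this share in the detection of Pdgfd was not tested. The reference's color was well above background for the brightest Pdgfd probe on 7 of 38 arrays, so that in most tumors the ratio was taken over a reference near background. The tumor's color minus local background ran from 69.2 in p110-374 to 197 in p75-94 in high-Wnt tumors, and was 155 in p75-47, the only one measured. In low-Wnt tumors it ran from 181 in p75-150 and 235 in p110-143 to 2523 in p110-360 and 6622 in p110-314. In this signal, without the reference, the clusters therefore overlapped, since p75-94 lay above p75-150. The reference's color lay between 55.6 and 137 in all tumors, and was highest in p75-94. The probe shown above for Pdgfd gave the same order at its top: it was measured in p75-101, p110-314 and p110-360, at log2 ratios of 0.70, 0.92 and 1.33, and lay between −0.04 and 0.27 in the other 14 tumors, so that for it the clusters overlapped.

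**Figure D2:**
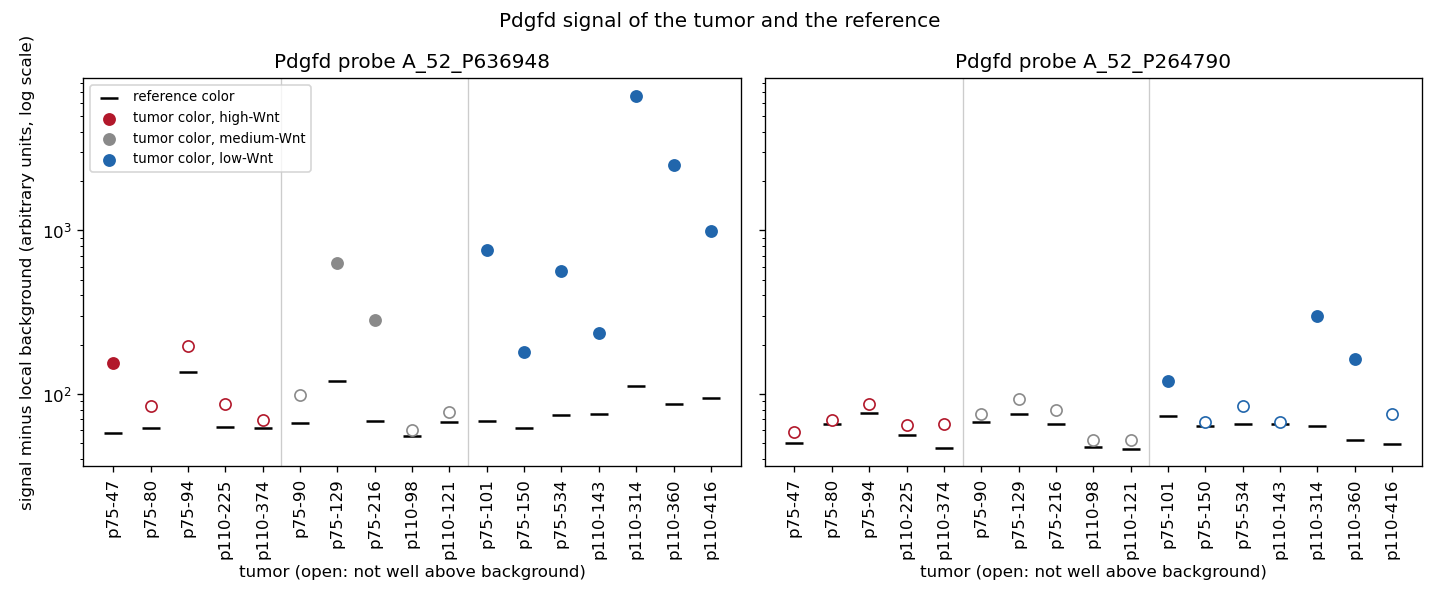
Signal minus local background, on a log axis, for both Pdgfd probes in each tumor. Dots are the tumor's color, open where it was not well above background, and dashes are the reference's color. With the brightest probe p110-314 and p110-360 reach 6622 and 2523, while the reference stays between 55.6 and 137. High-Wnt p75-94, at 197, lies above low-Wnt p75-150, at 181.

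Pdgfc, the other ligand with a CUB domain, was by its brightest probe higher than the reference in every low-Wnt tumor, from 0.61 in p110-314 over a median of 0.95 to 1.81 in p110-416. In high-Wnt tumors it was 1.41 in p75-47, 0.29 in p75-80, 0.74 in p75-94, −0.27 in p110-225 and −0.34 in p110-374, and in medium-Wnt tumors 1.20 in p75-129, 0.83 in p75-216, −0.61 in p75-90, −0.92 in p110-98 and −2.13 in p110-121. The high-Wnt mean was 0.37 ± 0.73 (SD, n = 5) and the low-Wnt mean 1.18 ± 0.47 (SD, n = 7), a difference of −0.81 with overlap, since p75-47 and p75-94 reached low-Wnt values. The difference was −0.39 within p75 tumors and −1.46 within p110 tumors, in a range of −1.60 to −0.39 under other settings. The 3 tumors in which Pdgfc was not measured, p110-98, p110-121 and p110-374, were all p110 tumors, and p110-98 and p110-374 had the smallest shares of measured probes. A second probe, A_51_P333839, was measured in 13 tumors and gave a high-Wnt minus low-Wnt difference of −0.80, but a log2 ratio of −0.10 in p110-314, below the reference. The third, A_52_P408629, was measured in 2 tumors only.

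Pdgfa, which encodes a ligand of PDGF receptor α, was measured in every tumor and varied least among the brightest probes, with an SD of 0.67 over the 17 tumors. Its log2 ratios ran from −2.19 in p110-416 over a median of −0.43 to 0.68 in p75-80. The means of the 3 clusters, from high-Wnt to low-Wnt −0.02 ± 0.59 (SD, n = 5), −0.30 ± 0.55 (SD, n = 5) and −0.57 ± 0.77 (SD, n = 7), overlapped. The low-Wnt value of p110-416 lay apart from the next lowest, −0.69 in p110-360. The other probe gave a high-Wnt minus low-Wnt difference of 0.68, against 0.55 for the brightest, which fell to 0.28 without p110-416 and turned to −0.38 with median centering in place of loess.

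Pdgfb, which encodes the ligand of both receptors, was measured by its brightest probe in p110 tumors only: the log2 ratio was 2.02 in p110-121, 1.28 in p110-225, 0.9991 in p110-143, 0.24 in p110-360 and −0.29 in p110-314. In the 9 p75 tumors it was not measured and lay between −0.36 and 0.09. The reference's color was itself well above background for this probe on 20 of 20 arrays of p110 tumors and on 0 of 18 arrays of p75 tumors, with median signals of 283 and 43.8, although the reference RNA was of the same kind on all arrays. In the tumor's color alone Pdgfb was by this probe at least 2.23-fold higher in p110 than in p75 tumors. Only this bound is given, since in p75 tumors the ratio was one of background over background. The reference's color was higher on arrays of p110 tumors as well, and for this bound transgene cannot be told apart from scan year. The second probe, A_51_P175262, was measured in 1 tumor, p75-129. Its mean log2 signal in the tumor's color was 6.95 in p75 and 6.86 in p110 tumors, so that it did not show the same difference. In p110-121, where the log2 ratio of Pdgfb was highest, the immune markers were also at their highest and the epithelial markers at their lowest. Their part in the value was not tested. The dye-swapped arrays of p110-121 differed by 1.47 in this log2 ratio. In the tumor's color minus local background the brightest Pdgfb probe stood at 483 in p110-314, 443 in p110-121 and 153 in p110-225, so that the order differed there.

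Pdgfrb, the receptor of PDGF-B and PDGF-D, was measured in 16 tumors. Its log2 ratio was highest in p110-121 (1.44) and p110-225 (1.21), which were also the tumors with the highest log2 ratios of Pdgfb. In the other high-Wnt tumors it was −0.61 in p75-47, 0.50 in p75-80, 0.82 in p75-94 and −0.12 in p110-374, and in low-Wnt tumors it ran from −1.54 in p75-534 over a median of −0.38 to 0.09 in p110-143. The high-Wnt mean of 0.36 ± 0.73 (SD, n = 5) lay above the low-Wnt mean of −0.51 ± 0.60 (SD, n = 7) by 0.87, with overlap. This difference was 0.015 with median centering in place of loess and 1.66 among solid carcinomas, of which only p110-225 is high-Wnt. The fibroblast markers moved the same way, with a median difference of 0.76 over the list, against 0.015 for all genes (Col1a1 1.23, Fbln1 1.97), and 8 of the 10 were higher in high-Wnt tumors, the exceptions being Lum (−1.68) and Fap (−0.59). Their mean per tumor ranged from −1.35 over a median of 0.14 to 1.10 in high-Wnt and from −3.46 over a median of −0.14 to 0.63 in low-Wnt tumors. The pericyte and smooth muscle markers had a median difference of −0.11, with 5 higher and 5 lower, from −0.88 for Abcc9 to 1.45 for Acta2. In the other medium-Wnt tumors it was lower, from −1.94 in p75-129 to −1.01 in p75-90. The mean over the fibroblast markers was 1.10 in p110-225, the highest of all tumors, and −0.39 in p110-121. The part of these markers in the Pdgfrb values was not tested.

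Pdgfra, the receptor of PDGF-A and PDGF-C, was lower than the reference in all 17 tumors. Its brightest probe, averaged over 10 spots, ranged from −4.73 in p110-416, where it was not measured, over a median of −2.32 to −0.997 in p75-101, and was measured in 2 of 5 high-Wnt, 1 of 5 medium-Wnt and 6 of 7 low-Wnt tumors. The cluster means of −2.15 ± 0.84 (SD, n = 5), −2.56 ± 0.76 (SD, n = 5) and −2.37 ± 1.33 (SD, n = 7) overlapped. The high-Wnt minus low-Wnt difference of 0.22 turned to −0.17 without p110-416 and to −0.056 without p110-225. It was −1.10 within p75 tumors, where Pdgfra was measured in 1 of 3 high-Wnt and 3 of 3 low-Wnt tumors, and 1.64 within p110 tumors, where it was measured in 1 of 2 and 3 of 4. Both values rest in part on unmeasured tumors, and no difference between the transgenes is read from them. In p110-416 the tumor's color stood at 87.7 over a reference of 5177, so that its ratio is no exact value and has no rank among the unmeasured tumors. The fibroblast markers were at their lowest there (−3.46), and their part in the value was not tested.

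**Figure D3:**
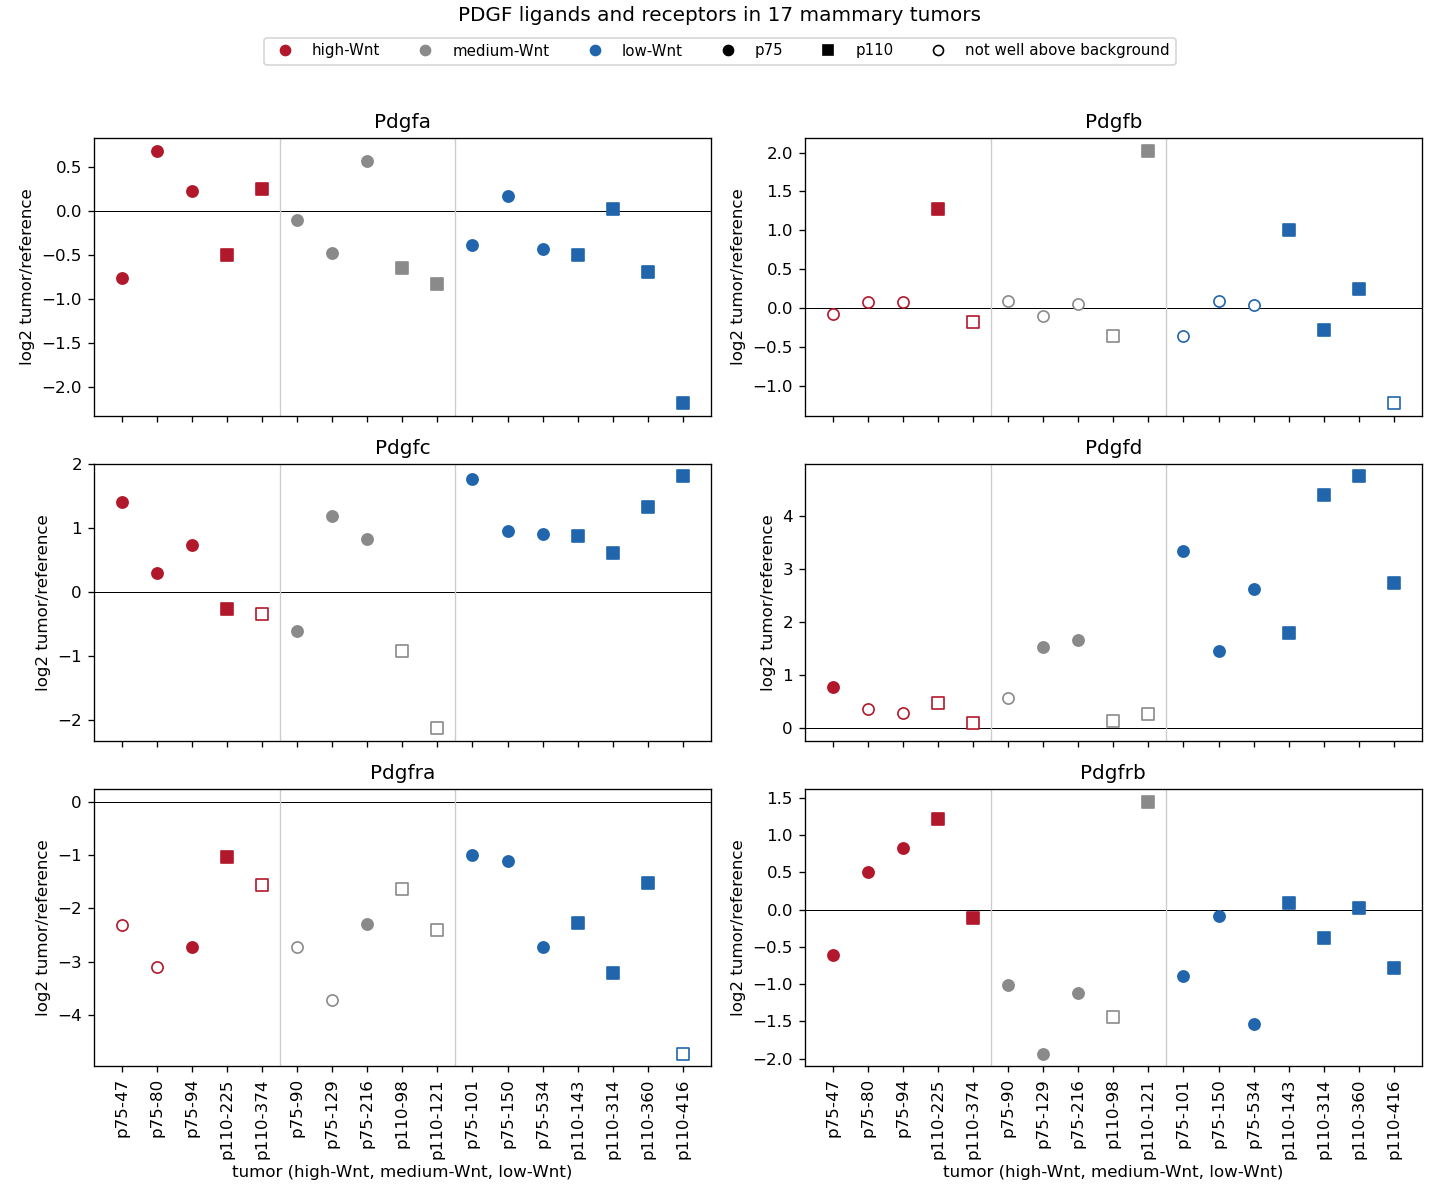
Log2 ratio of tumor over reference for the brightest probe of each member in the 17 tumors, ordered by cluster. Circles are p75 and squares p110 tumors, and open symbols mark tumors in which the probe was not well above background. Pdgfd lies at 0.78 or below in the 5 high-Wnt tumors and at 1.45 or above in the 7 low-Wnt tumors, while the other members overlap.

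To compare the family by histology, the 4 adenosquamous carcinomas were set against the 9 solid carcinomas. None of the 5 members tested passed the test (0 of 5), in a comparison where limma called 0 of 28786 genes, or 0%, and 1582 genes had an unadjusted p under 0.05, but 0 of the 5 members. The largest difference among the other 4, without Pdgfb, was that of Pdgfa, with log2 ratios of −0.77, 0.68, 0.22 and −0.39 in p75-47, p75-80, p75-94 and p75-101, against a range of −2.19 to 0.16 with a median of −0.50 in solid carcinomas. The means differed by 0.54 ± 0.38 (SE), with an adjusted p from limma of 0.87 and a p of 0.21 from the exact permutation test. This difference was 0.29 without p75-80 and 0.34 without p110-416. Pdgfc differed by 0.46 ± 0.60 (SE; limma adjusted p = 0.906), Pdgfra by 0.24 ± 0.66 (SE; limma adjusted p = 0.957) and Pdgfrb by 0.17 ± 0.60 (SE; limma adjusted p = 0.967). Each of these 4 differences was smaller than the SD among solid carcinomas. They also hung on single tumors. That of Pdgfc was 0.12 without p110-121, 0.23 without p75-101 and 0.72 without p75-80, and with 1 tumor left out that of Pdgfra ran from −0.19 (without p75-101) to 0.51 (without p75-80) and that of Pdgfrb from −0.12 (without p75-94) to 0.46 (without p75-101). The second Pdgfc probe, A_51_P333839, gave −0.04. Pdgfra was measured in 2 of 4 adenosquamous and 6 of 9 solid carcinomas, so that its difference rests in part on unmeasured tumors. Pdgfb was in the fit (limma adjusted p = 0.896), but in adenosquamous carcinomas its ratio was one of background over background, so that the fit does not show whether it differed. In the tumor's color Pdgfb was by its brightest probe at least 1.80-fold higher in solid than in adenosquamous carcinomas, in none of which it was measured. By this probe it was measured in 5 of 6 p110 and 0 of 3 p75 solid carcinomas, and all adenosquamous carcinomas carried p75, so that for this value histology cannot be told apart from transgene and scan year. The second Pdgfb probe, A_51_P175262, had mean log2 signals in the tumor's color of 6.93 in adenosquamous and 6.84 in solid carcinomas. It did not show the same difference.

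Pdgfd was left without a test by histology, since 3 of the 4 adenosquamous carcinomas are high-Wnt. It was 0.78, 0.37 and 0.29 in these 3 and 3.34 in p75-101, the low-Wnt adenosquamous carcinoma. In solid carcinomas Pdgfd ranged from 0.28 over a median of 1.79 to 4.74. All adenosquamous carcinomas carried p75. Within p75 tumors (4 against 3) the adenosquamous minus solid difference was 0.19 for Pdgfa, 0.03 for Pdgfc, 0.23 for Pdgfra and 1.14 for Pdgfrb, the last from a p75 solid mean of −1.19. The only adenocarcinoma, p75-216, had a Pdgfd of 1.67 and the only adenoma, p110-98, one of 0.15.

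To compare the family by transgene, 9 p75 were set against 8 p110 tumors. None of the 6 members passed the test (0 of 6, also at an unadjusted p under 0.05), in a comparison where limma called 0.459% of all genes (132 of 28786), and 35 to 1173 genes with 1 tumor left out (1173 without p110-314). Pdgfb was in the fit (limma adjusted p = 0.722), which for the reason given above does not show whether it differed. Other settings changed the calls: Pdgfa passed with median centering (1.92; limma adjusted p = 0.02), and Pdgfa and Pdgfb passed where the tumor's color alone was fitted (1.28 and −1.66; limma adjusted p = 0.00928 and 0.00943). Both settings also called far more of all genes than the 132 above. The Pdgfb difference there is no exact value, since its brightest probe was not measured in any p75 tumor. Pdgfa had means of −0.06 ± 0.50 (SD, n = 9) in p75 and −0.64 ± 0.73 (SD, n = 8) in p110 tumors, a difference of 0.58 ± 0.29 (SE), with an adjusted p from limma of 0.395 and a p of 0.0658 from the exact permutation test. Without p110-416 the difference was 0.35. Its second probe gave −0.03, so that both probes did not show the same difference. Pdgfc differed by 0.71 ± 0.47 (SE; limma adjusted p = 0.543), Pdgfrb by −0.66 ± 0.44 (SE; limma adjusted p = 0.542; 0.49 with median centering), Pdgfd by −0.43 ± 0.71 (SE; limma adjusted p = 0.838) and Pdgfra by −0.11 ± 0.48 (SE; limma adjusted p = 0.944). Without p110-121 the Pdgfc difference was 0.39, and under other settings it ran from 0.25 to 1.80. The second Pdgfc probe, A_51_P333839, gave 0.14. By its brightest probe Pdgfc was measured in 9 of 9 p75 and 5 of 8 p110 tumors. The Pdgfd difference was −0.015 without p110-360 and −0.065 without p110-314, and between −0.68 and −0.65 without p75-101, p110-98, p110-121 or p110-374. That of Pdgfra ran from −0.46 (without p110-416) to 0.065 (without p110-225). Pdgfra was measured in 5 of 9 p75 and 4 of 8 p110 tumors, so that its difference rests in part on unmeasured tumors. Among solid carcinomas alone (3 against 6) the Pdgfrb difference was −1.45, from means of −1.19 in p75 and 0.27 in p110 tumors that overlapped, and it did not pass the test there either.

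**Figure D4:**
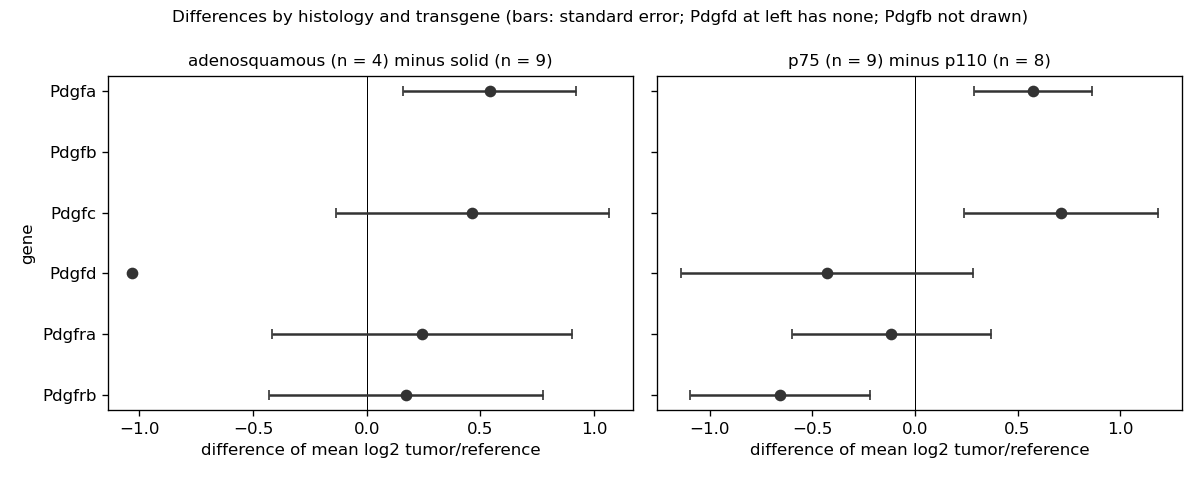
Difference of mean log2 ratios for the brightest probe of each member, adenosquamous minus solid on the left and p75 minus p110 on the right, with bars of 1 standard error. None of the members drawn passed the test in either comparison. Pdgfd has no bar on the left because it was not tested there, and Pdgfb is not drawn because it was not measured in any adenosquamous or p75 tumor.

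The other genes of the pathway were followed in lists with 61 genes beside the members, all of them on the array. By histology 0 of 61 were higher and 0 lower. By transgene 0 were higher and 1, Lrp1, was lower in p75 tumors. LRP1 is an endocytic receptor that associates with PDGF receptor β. The log2 ratio of Lrp1 ranged from −2.30 over a median of −0.99 to −0.28 in p75 tumors and from −0.86 over a median of 2.50 to 3.34 in p110 tumors, so that the ranges overlapped. The difference was −2.93 ± 0.57 (SE; limma adjusted p = 0.0365). The reference's signal for this Lrp1 probe lay between 898 and 2154 on arrays of p75 tumors and between 2991 and 29612 on those of p110 tumors. The second Lrp1 probe was measured in 3 tumors only, at −0.03 in p75-80, 0.12 in p110-121 and −1.51 in p110-314. The first probe gave −0.94, 2.95 and −0.86 there. With unmeasured tumors included, the second probe ran from −1.64 to −0.03 in p75 and from −2.17 to 0.12 in p110 tumors, so that it did not show the same difference. The call was lost under 16 of 34 alternative settings.

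Among the genes for ligand processing and co-receptors (11 genes), the largest differences by histology were those of Pcsk6, a proprotein convertase, at 1.42 and of Lrp1 at −1.29. Their median difference was 0.08, against −0.01 for all genes. Among 23 genes of receptor signaling Src, a cytoplasmic kinase recruited by the receptors, differed by −0.94 and Pik3r1, the regulatory subunit of PI 3-kinase, by −0.48 (list median −0.10). By transgene Src differed by −1.75 (limma adjusted p = 0.185) and Ptpn1, a phosphatase of receptor kinases, by −1.03 (limma adjusted p = 0.16), with a list median of −0.07 against 0.00 for all genes. None of these passed the test.

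Of 13 immediate early genes that PDGF induces in fibroblasts, Myc differed by 0.69 and Ccl2 by −0.67 by histology, and Ccl2 by −0.82 and Egr1 by 0.57 by transgene. Of the 5 VEGF ligand genes, which are related to the PDGF genes in sequence, Vegfd differed by −0.53 and Vegfc by −0.31 by histology, and Vegfd by −1.14 and Vegfa by −0.65 by transgene. Of 9 related receptor kinases and their ligands, Kdr differed by −0.85 and Kitl, the ligand of Kit, by −0.57 by histology, and Kdr by −0.82 and Csf1r by −0.68 by transgene. The medians of these 3 lists lay between −0.18 and −0.02 in both comparisons, and no gene of them passed the test.

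For each member measured in at least 9 tumors, the 3 genes with the most similar pattern over the 17 tumors were named among 11378 other genes measured as often, by Pearson's r and as a description. They were Olah (0.90), Lphn1 (0.90) and Tmprss13 (0.90) for Pdgfd, and Gjb2 (0.93), Cd24a (0.91) and Fdx2 (0.90) for Pdgfc. Gjb2 encodes a gap junction protein. For Pdgfrb they were Fxyd5 (0.89), Csf2rb2 (0.84) and Cd52 (0.84), the last a surface antigen of lymphocytes. For Pdgfa they were Lrfn4 (0.85), Aplp2 (0.80) and Osbpl5 (0.78), and for Pdgfra Ppm2c (0.82), Tcra (0.82) and Nfkbie (0.80). All genes share the arrays, the dye swaps and the reference. Each r runs over all 17 tumors, of which Pdgfd was measured in 10 and Pdgfra in 9, so that it also takes in unmeasured values.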

How the data were processed

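Microdissected RNA of 17 tumors was amplified, as was the reference, and hybridized to 38 arrays of 45018 spots on 15 slides, scanned on 10 days. The intensity values deposited by the authors were measured with Feature Extraction 9.5.3.1 and are not normalized. Their deposited table gives, for each probe and tumor, the log2 ratio over the reference, averaged by the authors over the tumor's arrays. Computed from the scanner files with normexp (offset 50) and loess, the same values came out within 4.98e-08.

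These log2 ratios were used after removal of control spots and averaging of spots, with the brightest probe for each gene and RefSeq symbols where identifiers matched (55.7% of probes). Comparisons were fitted with R 4.3.3 and limma 3.58.1 (lmFit and eBayes, with p-values adjusted over 28786 genes by Benjamini-Hochberg and a threshold of 0.05) and single values with exact two-sided permutation tests. Clusters were taken from the study, and histology and transgene from the labels. On simulated data of the same size, 63.5% of 200 changed genes were recovered by transgene and 19% by histology. There each change was at least 2 SD of its gene, on noise independent between genes and tumors. Smaller changes were not simulated. The members and lists were chosen with earlier results of these data known. All members were named, and of the pathway lists the called genes or else the 2 largest differences per list among genes measured in at least 9 tumors. Signal over background and the number of arrays limit the precision. Alternatives were other background corrections, normalizations, probe choices, dyes, blocks and subsets, and each tumor left out in turn.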

Additional observations from a re-analysis of the deposited data

Results flagged for a closer look

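Of the 42 groups of values looked at (6 members in 7 groups), 8 had 1 sample far from the others by the size of its gap, and chance alone flags about 1 in 20 groups. The groups share tumors, and 3 of the 8 are the same value. The log2 ratio of Pdgfa in p110-416, −2.19, stood apart from the low-Wnt tumors, the solid carcinomas and the p110 tumors, where the nearest values were −0.69, −0.83 and −0.83. Pdgfb stood apart in p110-225 among high-Wnt tumors (1.28, nearest 0.08), in p110-121 among medium-Wnt tumors (2.02, nearest 0.08) and in p75-101 among p75 tumors (−0.36, nearest −0.10). It was not measured in any p75 tumor by this probe. Pdgfd in p75-101 stood apart from the other adenosquamous carcinomas (3.34, nearest 0.78). Pdgfrb in p110-121 stood apart from the other medium-Wnt tumors (1.44, nearest −1.01).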

How the results depend on the processing

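The high-Wnt minus low-Wnt log2 difference of Pdgfd, −2.61, was −3.95 with Feature Extraction signals and −1.50 with the mean of both probes, and lay between −2.87 and −2.32 with 1 tumor left out. By histology 0 members were called in any setting, and the number of genes called was 1 with Feature Extraction signals and 183 with slide as a random block on array values, where dye-swapped arrays count as samples. With 1 value for each tumor and slide, chosen after seeing the data, it was 0, and with 1 tumor left out 0 to 21 (21 without p75-101). By transgene the 132 genes called became 209 without background correction, 282 with Feature Extraction signals, 1197 with median centering, 58 with arrays scaled to the same spread, 1521 without the reference, in the tumor's color, 217 in Cy5 and 65 in Cy3 alone, 1166 with slide as a random block on array values, 0 in solid carcinomas alone, 1184 with Wnt cluster as a block, and 60 without p110-98 and p110-374, chosen after seeing the data. It was 35 to 1173 with 1 tumor left out (1173 without p110-314). Removing any p75 tumor or p110-225, p110-314 or p110-374 moved it by over 1.5 times. The members called by transgene were 0, except for Pdgfa with median centering (1 member; difference 1.92, limma adjusted p = 0.02) and Pdgfa and Pdgfb in the tumor's color (2 members; 1.28 and −1.66, limma adjusted p = 0.00928 and 0.00943). The −1.66 of Pdgfb is no exact value, since its brightest probe was not measured in any p75 tumor. The cause of these changes between settings was not tested.

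Differences that changed sign were, by histology, Pdgfra with Feature Extraction signals (−0.17), in the tumor's color (−0.39) and without p75-101 or p110-416 (−0.19 and −0.03, in a range of −0.19 to 0.51 with 1 tumor left out), Pdgfb with median centering (0.12), and Pdgfrb in the tumor's color (−0.12), with slide as a random block on array values (−0.0086) and without p75-80, p75-94 or p75-129 (range −0.12 to 0.46 with 1 tumor left out). By transgene they were Pdgfd with Feature Extraction signals (0.16), Pdgfb (0.18), Pdgfra (0.91) and Pdgfrb (0.49) with median centering, and Pdgfra with arrays scaled (0.34), in solid carcinomas alone (0.014), without p75-129 or p110-225 (range −0.46 to 0.065 with 1 tumor left out) and without p110-98 and p110-374 (0.12). Between the outer clusters, untested, Pdgfa turned from 0.55 to −0.38 with median centering, Pdgfb from 0.31 to −0.076 in the tumor's color, and Pdgfra from 0.22 to −0.97 with Feature Extraction signals, −0.54 with median centering, −0.86 in the tumor's color, −1.10 within p75 tumors, −0.056 without p110-225 and −0.17 without p110-416. Of 573 member values, which leave out the Pdgfd difference between the outer clusters given above, 541 kept their direction and side of the threshold or, untested, moved by less than 1 SD, 10 untested values moved further and 3 passed the threshold. No paired analysis was possible because no replicate numbers tie the tumors of different groups.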
